A study of Mus musculus with 6 samples.

Results

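Tuft cells, also called brush cells in the airway, are rare epithelial cells that sense chemicals in the lumen with the signalling chain of taste cells. The genes described here are 10 that serve this chain or mark the cell. They are the lineage factor Pou2f3, the taste-type signalling genes Gnat3, Gnb3, Gng13, Plcb2 and Trpm5, the structural and kinase genes Avil and Dclk1, and the effector genes Chat and Ltc4s. They were followed in mouse tracheal epithelium before and after an injury that strips the luminal cells. Every probe set that the array annotation gives to exactly 1 of these symbols was taken, whatever its values. This found 20 probe sets for 9 of the 10 genes, out of 18193 genes with such a probe set. Gnat3, which encodes the taste G protein alpha subunit gustducin, had none.

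In a taste-type cell, a ligand binds a taste or metabolite receptor at the apical membrane and activates a G protein. Its beta and gamma subunits, for which Gnb3 and Gng13 code, stimulate phospholipase C beta 2, the product of Plcb2. The inositol trisphosphate that is formed releases calcium from internal stores, and calcium opens the cation channel Trpm5, which depolarizes the cell. Tuft cells then act on their neighbours with acetylcholine, which Chat makes, and with cysteinyl leukotrienes, whose first member, leukotriene C4, Ltc4s makes. Pou2f3, a POU domain transcription factor, is required for tuft cells to form.

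Epithelium was taken from adult male C57Bl/6 mice, either controls or animals at 48 h after 500 ppm SO2 was inhaled for 4 h (48 hpi). Each group had 3 samples, and each sample was a pool of the tracheas of 4 mice. The epithelium was peeled off after protease digestion and depleted of CD45+ leukocytes before RNA extraction, by the same steps in both groups. How complete the depletion was in each group was not measured here. RNA was amplified and hybridized to Affymetrix Mouse Genome 430 2.0 arrays. The mesenchyme of the same experiment was not analysed here. Levels are log2 signals after robust multi-chip analysis (RMA), and a change is the 48 hpi mean minus the control mean on this scale, with its standard error (SE). A probe set was called lower or higher at an adjusted p below 0.05 in limma, adjusted over all 45037 probe sets. Means are given with the SD of 3 pools.

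All 6 arrays had medians between 4.89 and 4.99. A set of 81 probe sets of olfactory, trace amine and vomeronasal receptor genes, taken as silent in trachea, served as a guide to background, and the 95th percentile of their group means was 4.93 in control and 4.81 at 48 hpi. A level under it is called within background, which is an approximate bound because probe sets differ in their own background. The third 48 hpi pool stood a little apart, with correlations of 0.990 and 0.992 to the other two 48 hpi pools, which correlated at 0.996 with each other. It held the lowest value in 13 of the 20 probe sets, against 24.6% of all probe sets. In pooled tissue, fewer tuft cells and less RNA per tuft cell cannot be told apart. The number of arrays limits the precision, and the smallest two-sided p that exact permutation of the 6 pools can give is 0.1.

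Most of the measured chemosensory genes, but not all, had a probe set called lower at 48 hpi. Of the 20 probe sets, 11 were called lower, 5 of them of Dclk1, and 0 higher, and 9 were not called, 2 of which had an unadjusted p under 0.05. Over all probe sets tested, 13.9% were called lower and 14.5% higher. The median change was -0.55 for the 20 probe sets and -0.03 for all. The mean fell short of the control mean in 19 of the 20, against 54.6% of all probe sets. In 11 the 3 injured pools lay below the 3 control pools with no overlap, against 22.4% of all. With 1 probe set a gene, the brightest on average over the 6 arrays, 6 of 9 genes were called lower (Gng13, Trpm5, Ltc4s, Avil, Dclk1 and Gnb3) and 0 higher, where 16.1% of all genes were called lower and 18.4% higher. Pou2f3, Plcb2 and Chat were not called. When the arrays were shifted instead to equal means of the spiked hybridization controls, which moved the median change of all probe sets to 0.32, Gng13 and Trpm5 were the 2 genes still called lower. The directions given here are therefore relative to the bulk of probe sets.

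**Figure D1:**
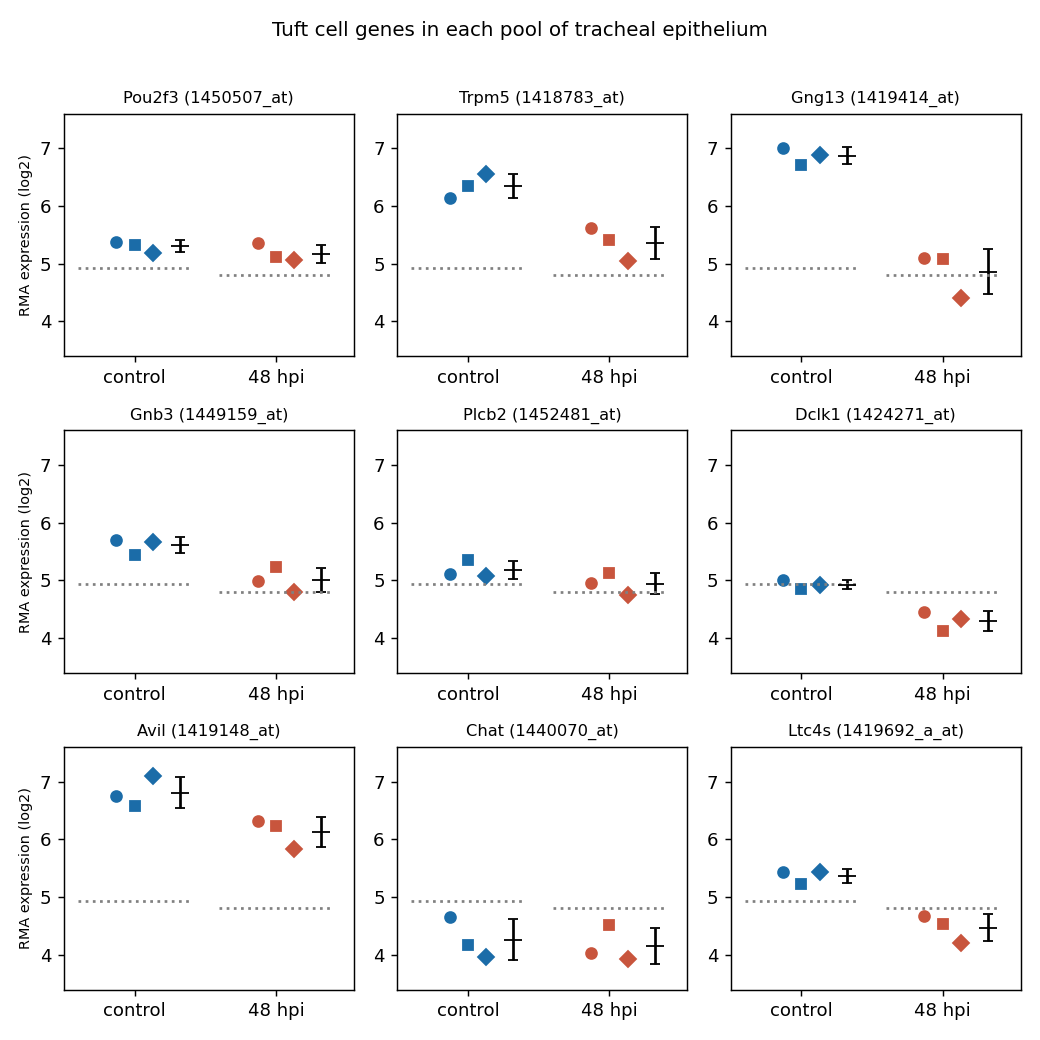
Log2 RMA signal of the brightest probe set of each of the 9 measured genes in the 3 control and the 3 48 hpi pools. Points are pools, black ticks are group means with capped bars of the SD of 3 pools, and the dotted lines mark the background levels of 4.93 and 4.81. Control and 48 hpi points are separate for Gng13, Trpm5, Ltc4s, Avil, Dclk1 and Gnb3, and they overlap for Pou2f3, Plcb2 and Chat.

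**Figure D2:**
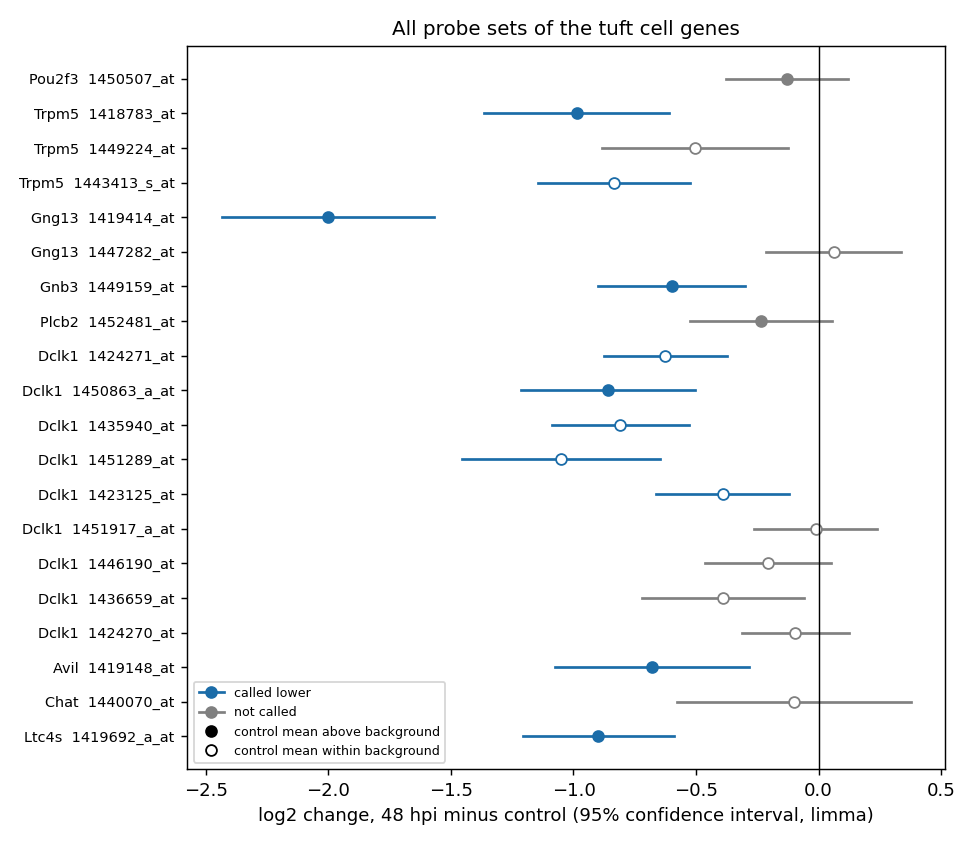
Change at 48 hpi against control for all 20 probe sets, on the log2 scale, with 95% confidence intervals from limma. Of these, 11 were called lower, 19 lie left of 0, and the second Gng13 probe set, at 0.06, is the exception.

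The promoters of 3 genes are shown because these genes changed in the epithelium and act at different points of the cell: the G protein, the channel and the cytoskeleton. They are RefSeq windows of 300 bases (GRCm38.p6) that run from 250 bases before to 50 after a transcript start, written 5' to 3' on the gene's strand. Since Pou2f3 belongs to the POU factors that bind the octamer, windows were searched on both strands for ATGCAAAT and for its first 7 letters, ATGCAAA, which every full octamer also contains. Capitals mark matches to the 7 letters.
Gng13, chr17:25716922-25717221, plus strand: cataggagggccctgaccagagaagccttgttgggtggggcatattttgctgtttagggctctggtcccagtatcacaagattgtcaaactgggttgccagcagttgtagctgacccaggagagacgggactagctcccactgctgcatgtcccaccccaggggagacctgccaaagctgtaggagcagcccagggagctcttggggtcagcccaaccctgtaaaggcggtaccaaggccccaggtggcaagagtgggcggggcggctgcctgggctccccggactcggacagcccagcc
Trpm5, chr7:143094593-143094892, minus strand: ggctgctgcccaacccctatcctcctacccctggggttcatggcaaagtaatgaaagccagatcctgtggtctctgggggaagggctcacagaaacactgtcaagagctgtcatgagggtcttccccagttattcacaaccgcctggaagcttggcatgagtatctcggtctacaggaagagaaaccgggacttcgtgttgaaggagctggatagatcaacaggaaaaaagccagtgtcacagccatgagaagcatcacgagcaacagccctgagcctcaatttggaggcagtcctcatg
Avil, chr10:127000459-127000758, plus strand: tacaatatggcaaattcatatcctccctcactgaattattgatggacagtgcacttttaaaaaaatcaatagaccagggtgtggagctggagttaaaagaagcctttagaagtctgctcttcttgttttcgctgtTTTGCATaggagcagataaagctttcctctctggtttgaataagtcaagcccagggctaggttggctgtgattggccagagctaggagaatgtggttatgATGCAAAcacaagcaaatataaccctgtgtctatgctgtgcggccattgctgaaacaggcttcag
The full octamer was found in 1.74% of 32851 promoter windows and in 0 of 10 windows that RefSeq gave for 8 of the 10 genes. The 7 letters were found in 4.63% of all windows and in 1 of the 10, that of Avil. The Avil window holds them in the reverse direction at -115 and in the forward direction at -15, counted from the transcript start. These are matches of letters and say nothing of binding. No promoter window was used for Pou2f3 or Gnb3.

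Pou2f3 itself differed by less than the spread between pools. Its 1 probe set read 5.38, 5.33 and 5.19 in the control pools and 5.35, 5.11 and 5.06 at 48 hpi. The groups overlapped, since the first injured pool was above 2 of the control pools. The means were 5.30 ± 0.10 and 5.17 ± 0.16, both above background, and the change was -0.13 (SE 0.11, limma adjusted p = 0.436). The 95% interval ran from -0.38 to 0.12. The genes whose pattern over the 6 arrays was most like it were Osbpl9, Kptn, Haghl, Fuz and Klf6, with Pearson r from 0.974 to 0.991 among 12279 genes above background. This is a description of 6 arrays over which Pou2f3 spanned a narrow range, and none of these 5 genes was called.

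Gng13, the gamma subunit of the taste G protein, changed most among the 9 genes. Its brighter probe set read 7.002, 6.71 and 6.89 in control and 5.10, 5.09 and 4.41 at 48 hpi. The groups were far apart, and the third injured pool was under the background level of 4.81 while the other two were above it. The mean fell from 6.87 ± 0.15 to 4.86 ± 0.39, a change of -2.002 (SE 0.19, limma adjusted p = 0.000262), or 4.01-fold. The injured mean was just above the background level of 4.81. It was under the 48 hpi level of 5.14 at the highest percentile tried, so the fold rests on a signal near background. Of all probe sets on the array, 0.346% had a lower change. The second Gng13 probe set was within background in both groups, at 4.50 and 4.56, and was not called (0.06, SE 0.12).

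Gnb3 encodes the beta subunit that pairs with the Gng13 protein. Its 1 probe set read 5.70, 5.45 and 5.67 in control and 4.99, 5.23 and 4.80 at 48 hpi. All injured pools were below all control pools, by a small gap between the second pools of each group. The mean fell from 5.61 ± 0.14 to 5.01 ± 0.21, a change of -0.60 (SE 0.13, limma adjusted p = 0.0104), or 1.52-fold. The call was lost with a t-test of each probe set on the same 6 arrays after Benjamini-Hochberg adjustment, in place of limma.

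Plcb2, the phospholipase that the freed beta and gamma subunits stimulate, was not called. Its probe set read 5.12, 5.36 and 5.07 in control and 4.96, 5.13 and 4.75 at 48 hpi. The second injured pool lay within the control range. The means were 5.18 ± 0.15 and 4.95 ± 0.19, and the change of -0.24 (SE 0.13, limma adjusted p = 0.212) had an interval from -0.53 to 0.05.

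Trpm5, the calcium-activated channel at the end of the chain, was lower at 48 hpi. Its brightest probe set read 6.13, 6.35 and 6.56 in control and 5.62, 5.41 and 5.06 at 48 hpi. The lowest control pool was well above the highest injured pool. The mean fell from 6.35 ± 0.21 to 5.36 ± 0.28, a change of -0.99 (SE 0.16, limma adjusted p = 0.00311), or 1.98-fold. Trpm5 has 2 further probe sets, both within background in each group. One of them was called lower at -0.83 (SE 0.13) and the other was not called at -0.51 (SE 0.16, limma adjusted p = 0.0527), though it passed without the first injured pool (-0.68, limma adjusted p = 0.00953).

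**Figure D3:**
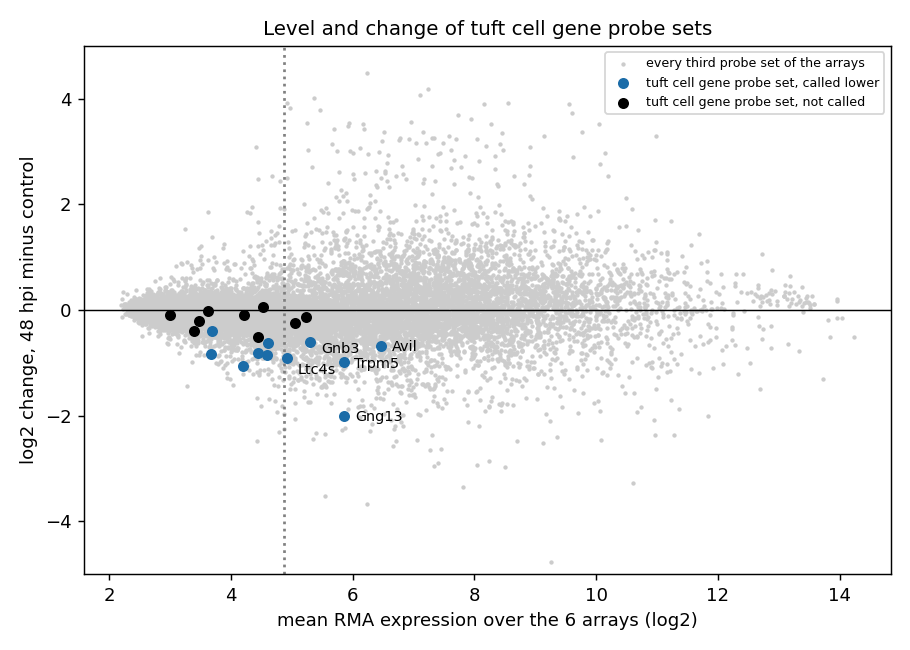
Mean log2 signal over both groups (x axis) and change at 48 hpi (y axis, log2) for the 20 probe sets of the chemosensory genes, over a regular sample of the array's other probe sets in grey. The dotted vertical line is the mean of the 2 background levels. Gng13, at -2.002, lies lowest, and 12 of the 20 probe sets are within background in both groups.

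Avil encodes advillin, an actin-binding protein of the villin family that marks tuft cells and also sensory neurons. Its probe set read 6.75, 6.58 and 7.11 in control and 6.32, 6.24 and 5.83 at 48 hpi. The groups did not overlap, and the gap was between the second control pool and the first injured pool. The mean fell from 6.81 ± 0.27 to 6.13 ± 0.26, a change of -0.68 (SE 0.17, limma adjusted p = 0.0201), or 1.60-fold. Without the third control pool, the highest, the change was -0.53 and the call was lost (limma adjusted p = 0.0641). It was also lost with the t-test of each probe set.

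Dclk1, a microtubule-associated kinase used as a tuft cell marker, is covered by 9 probe sets that differ widely among themselves. Their control means ran from 3.05 to 5.02, and 1 of the 9 was above background in control. The changes ran from -1.05 to -0.01, with 5 probe sets called lower and 4 not called. The probe set above background read 5.35, 4.82 and 4.897 in control and 4.32, 4.18 and 4.00 at 48 hpi. Only the first of these control pools was clearly above the background level. Its mean fell from 5.02 ± 0.28 to 4.16 ± 0.16, a change of -0.86 (SE 0.15, limma adjusted p = 0.00437). Because the injured mean was within background, the fall is given as at least 1.16-fold, against the background level. The probe set of Dclk1 that was brightest on average, within background in both groups, was called lower at -0.63 (SE 0.11). The lowest change, -1.05 (SE 0.18), was that of another probe set within background. Of the 5 calls, that of the probe set at -0.39 (SE 0.12) was lost when any of 5 single pools was left out, with changes from -0.30 to -0.45, and all but the third injured pool were among them. Of the 4 not called, another at -0.39 passed without the first injured pool, at -0.52. The 9 probe sets share 1 gene and are not independent measurements.

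Ltc4s, the synthase that joins glutathione to leukotriene A4, was lower at 48 hpi. Its probe set read 5.44, 5.23 and 5.44 in control and 4.67, 4.53 and 4.21 at 48 hpi. All control pools were above background and all injured pools were within it. The mean fell from 5.37 ± 0.12 to 4.47 ± 0.23, a change of -0.90 (SE 0.13, limma adjusted p = 0.00185). Against the background level the fall was at least 1.48-fold.

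Chat, the enzyme that makes acetylcholine, was not detectable above background in either group. Its probe set read 4.65, 4.17 and 3.96 in control and 4.03, 4.52 and 3.94 at 48 hpi. The pools of both groups were interleaved. The change of -0.10 (SE 0.21, limma adjusted p = 0.771), with an interval from -0.58 to 0.38, was between signals that cannot be told from background.

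Receptors that feed this chain were measured for 9 of 18 listed genes. Of these, 0 were called, against 16.1% lower and 18.4% higher over all genes, and 2 had an unadjusted p under 0.05 in limma. These counts rest on the brightest probe set of each gene. Ffar2, a receptor for short-chain fatty acids, was not called on its brightest probe set (-0.55, SE 0.22, limma adjusted p = 0.102), but its other probe set was called lower, from 5.06 to 4.51 (-0.56, SE 0.09, limma adjusted p = 0.00291). Of the 9, 4 were within background in both groups. Tas1r3, the shared subunit of the sweet and umami taste receptors, was above background and read 5.30, 5.31 and 5.48 in control and 5.37, 5.56 and 5.09 at 48 hpi. The injured pools surrounded the control pools, with a change of -0.02 (SE 0.13). Of the bitter receptors on the list, 3 had a probe set (Tas2r105, Tas2r108 and Tas2r119), all within background. Ffar2 and these bitter receptor genes were named after their values were seen.

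Of 26 measured genes from a list of 29 further tuft cell genes, 9 were called lower (34.6%), 1 higher (3.85%) and 16 not called, against 16.1% lower and 18.4% higher over all genes, and the median change was -0.26. Il13ra1, a chain of the receptor for interleukin 13, read 9.14, 9.37 and 9.16 in control and 8.24, 8.22 and 7.75 at 48 hpi, a change of -1.15 (SE 0.15, limma adjusted p = 0.000969). Atp2a3, a calcium pump of the endoplasmic reticulum, read 8.67, 8.82 and 8.57 in control and 7.54, 7.61 and 6.90 at 48 hpi, a change of -1.33 (SE 0.19). Both had every injured pool well under the control pools, and both are also expressed outside tuft cells. Lrmp, a membrane protein of the endoplasmic reticulum that is abundant in tuft cells and lymphocytes, read 5.85, 5.94 and 6.09 in control and 5.198, 4.94 and 4.60 at 48 hpi, a change of -1.05 (SE 0.15). Ptpn18, a protein tyrosine phosphatase, was called lower at -0.66 (SE 0.11), and Espn, an actin bundler of microvilli, at -0.80 (SE 0.13) within background. Itpr3, the inositol trisphosphate receptor of taste cells, was well above background at 8.34 and 8.14 and was not called (-0.20, SE 0.09, limma adjusted p = 0.127). Il25, the cytokine by which intestinal tuft cells call type 2 immunity, was within background in both groups (-0.20, SE 0.09, not called). The 1 gene called higher, named after its values were seen, was Plcg2, a phospholipase C gamma found in immune cells, at 0.52.

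**Figure D4:**
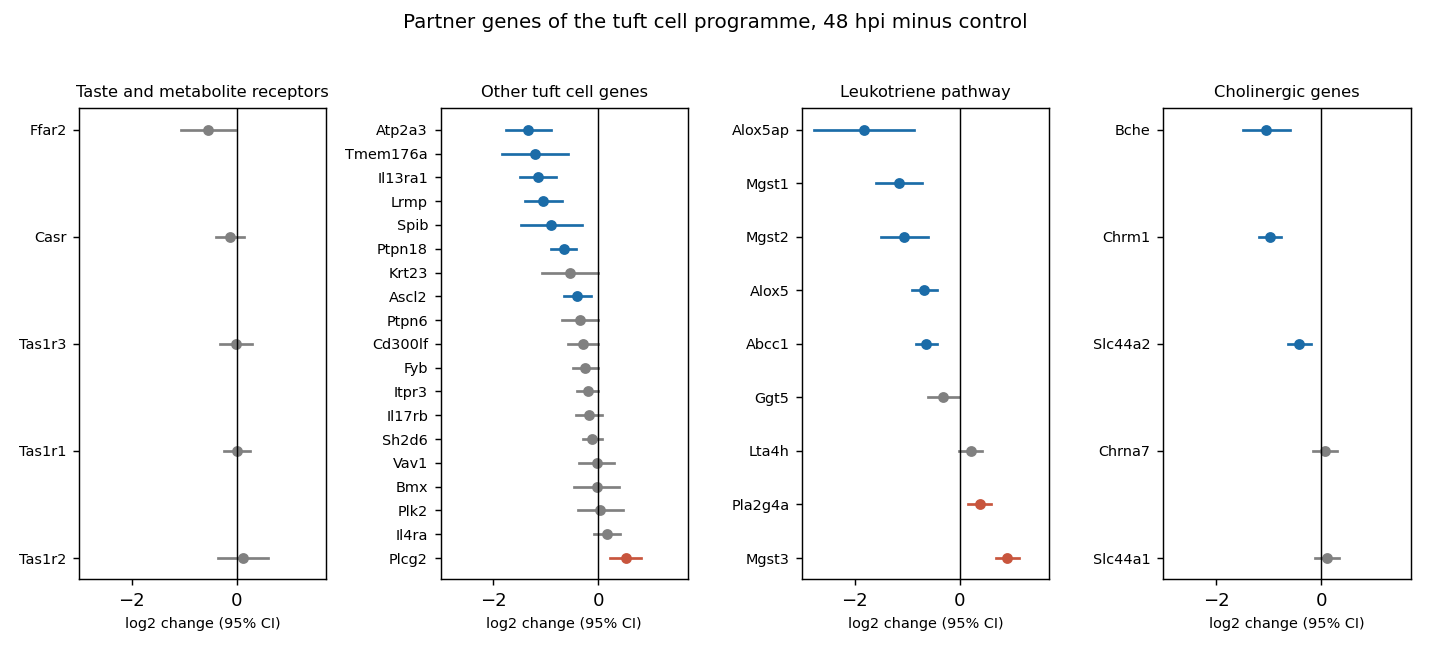
Change at 48 hpi (log2) with 95% confidence intervals for receptors, further tuft cell genes, leukotriene genes and cholinergic genes above background in at least 1 group, on the brightest probe set. Called genes lie on both sides of 0, from Alox5ap at -1.82 to Mgst3 at 0.91.

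Leukotriene genes around Ltc4s were called in both directions. Of 13 measured genes of 16, 5 were called lower (38.5%), 2 higher (15.4%) and 6 not called, against 16.1% lower and 18.4% higher over all genes, and the median change was -0.14. Alox5ap, which presents arachidonic acid to 5-lipoxygenase, read 7.17, 6.76 and 6.82 in control and 5.92, 5.35 and 4.02 at 48 hpi. The injured pools were all lower but spread widely, and the change was -1.82 (SE 0.41, limma adjusted p = 0.0128). Alox5, the 5-lipoxygenase, read 6.32, 6.27 and 6.14 in control and 5.71, 5.48 and 5.53 at 48 hpi, a change of -0.67 (SE 0.10, limma adjusted p = 0.0019). Both genes are also known from leukocytes and mast cells, whose values are given with the other cell types. Abcc1, the exporter of leukotriene C4, was called lower at -0.63 (SE 0.08), and a second Abcc1 probe set was not called (-0.16). Among the microsomal glutathione transferases related to Ltc4s, Mgst1 and Mgst2 were called lower, at -1.15 (SE 0.19) and -1.06 (SE 0.19). Mgst3 was called higher at 0.91 (SE 0.09), with 10.3, 10.2 and 10.3 in control and 11.1, 11.1 and 11.3 at 48 hpi. Pla2g4a, the phospholipase that frees arachidonic acid, was called higher at 0.38 (SE 0.10) and was named after its value was seen.

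Few cholinergic genes were above background. Of 14 measured genes of 16, 9 were within it in both groups, 3 were called lower (21.4%), 1 higher (7.14%) and 10 not called, against 16.1% and 18.4% over all genes. Chrm1, a muscarinic receptor, read 5.88, 5.90 and 5.97 in control and 4.86, 4.904 and 5.06 at 48 hpi, a change of -0.97 (SE 0.09, limma adjusted p = 0.000261) that the gene's other probe set did not pass (-0.36). Bche, which breaks down choline esters, read 6.02, 5.47 and 5.54 in control and 4.98, 4.38 and 4.53 at 48 hpi. Its injured mean was within background, so that the fall is at least 1.83-fold. Slc44a2, a choline transporter-like protein, was called lower at -0.42 (SE 0.10) on the brightest of its probe sets and was not called on the others. Without the second or the third control pool its call was lost, at -0.39 and -0.37. Slc5a7, the choline uptake carrier of cholinergic cells, was within background, with a change of 0.07 (SE 0.09). The 1 gene called higher, the nicotinic subunit Chrnb4 at 0.30 (SE 0.09), was also within background, and its call was lost whichever pool was left out, at 0.24 to 0.34.

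Relatives of the chemosensory genes that other cells use were set beside them. Over all genes, 16.1% were called lower and 18.4% higher. Of 40 measured relatives of 42, 11 were within background in both groups. Of the 40, 10 were called lower (25%), 5 higher (12.5%) and 25 not called, with a median change of -0.02. This balance turned with the scaling, to 6 lower and 11 higher with a common median and to 1 lower and 10 higher with equal hybridization controls. Of 10 other G protein gamma subunits, 5 were above background in at least 1 group. Changes of the 10 ran from -0.35 to 0.63, with 2 called lower and 1 higher. The highest of them, Gng12, read 7.76, 7.79 and 7.77 in control and 8.35, 8.37 and 8.48 at 48 hpi (0.63, SE 0.08), whereas Gng13 fell by 2.002 on the same arrays. A second Gng12 probe set was not called (0.07). Gnb5 was called lower at -0.53 (SE 0.09), and Gnb1, a widely used beta subunit, was not called on its brightest probe set (0.17, SE 0.10), although another of its probe sets was called higher at 1.06. Of the alpha subunits related to Gnat3, Gnai3 was called higher at 0.66 (SE 0.09), and the 7 of this family ran from -0.43 to 0.66. Plcb4 was called lower at -1.24 (SE 0.18) and Plcb3 was not called (0.03, SE 0.11). Trpm4, a calcium-activated channel close to Trpm5, was called lower at -0.48 (SE 0.11), a call lost without the second control pool (-0.44), and the other 5 TRPM relatives were not called. Of the villin family, Capg was called higher at 0.68 (SE 0.12), and 3 of 7 relatives of Avil were called lower. Members and relatives were measured by different probe sets, and the differences between their changes were not tested.

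**Figure D5:**
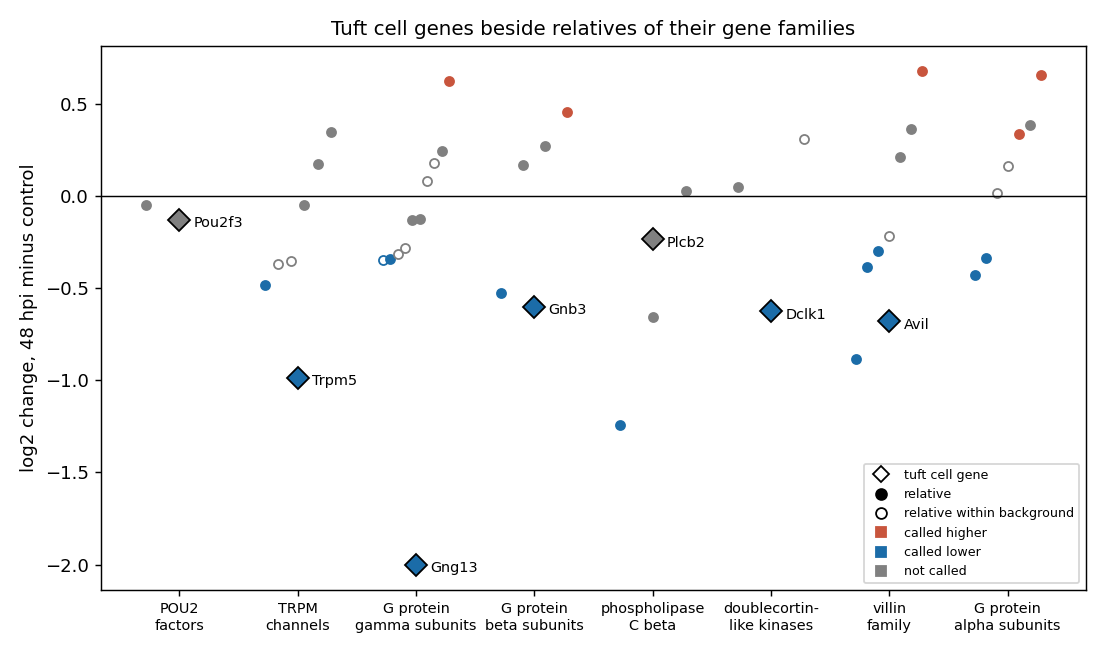
Change at 48 hpi (log2, y axis) of the chemosensory genes (diamonds) and of their family relatives (circles), 1 column per protein family, brightest probe set per gene. In the G gamma column Gng13 lies at -2.002 and the 10 relatives between -0.35 and 0.63. Of these 10 relatives, 5 were above background in at least 1 group.

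Markers of other epithelial cells were measured at 48 hpi as well. The share called lower was 80% for ciliated, 70% for secretory and 30% for basal cell genes, against 16.1% over all genes. The share called higher was 0%, 0% and 20%, against 18.4%. Of 10 ciliated cell genes, 8 were called lower and 0 higher, with mean list levels of 6.43 to 7.22 in the control pools and 5.43 to 6.00 in the injured pools. Of 10 secretory cell genes, 7 were called lower and 0 higher, with mean list levels of 12.2 to 12.4 and 10.7 to 11.7. The chemosensory genes had mean levels of 5.56 to 5.69 and 4.71 to 5.05. The part of these cells in the changes above was not tested. Of 10 measured basal cell genes, 3 were called lower and 2 higher. Those called higher were the keratins Krt14 (3.18) and Krt5 (0.69). Those called lower were the neurotrophin receptor Ngfr (-0.66), of which another probe set above background was not called (-0.20), and Dapl1 (-0.95) and Pdpn (-0.35), both named after their values were seen.

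Cells that share genes with tuft cells were measured by their own markers. Of the leukocyte, mast cell, neuronal and fibroblast genes, 20%, 12.5%, 28.6% and 12.5% were called lower and 0% higher. The shares over all genes were 16.1% and 18.4%. Of 10 measured leukocyte genes, 2 were called lower, Lcp1 at -1.21 and Csf1r at -0.84, and 5, including Ptprc, the gene of CD45, were within background. The 2 other probe sets of Csf1r, both above background, were not called (-0.30 and 0.01). The mean list level was 4.85 to 4.94 in control and 4.64 to 4.78 at 48 hpi. Of 8 mast cell genes, which matter for Ltc4s and Alox5, 1 was called lower (Kit, -1.35) and 6 were within background, including the protease genes Cpa3 and Tpsab1 and the receptor genes Fcer1a and Ms4a2. Tpsb2, above background in both groups on its brightest probe set at 5.69 and 5.78, was not called (0.08, SE 0.09). It was named after its values were seen. The mean list level of the mast cell genes was 4.07 to 4.14 in control and 3.85 to 3.98 at 48 hpi. Of 7 measured neuronal genes, which matter for Avil and Dclk1, 2 were called lower, Stmn2 at -2.10 and Elavl4 at -0.39, a call lost at -0.31 to -0.41 without the first or second pool of either group, and 6 were within background in both groups. Their mean list level was 3.95 to 4.16 and 3.68 to 3.71. Of 8 fibroblast genes, 1 was called lower (Dcn, -1.85), 0 were called higher and 5 were within background in both groups. Col3a1 (1.04, SE 0.47) and Col1a1 (0.44, SE 0.22), above background at 48 hpi alone, were not called. Both were named after their values were seen. The median change of the fibroblast list was 0.21, with mean list levels of 4.93 to 4.98 and 4.80 to 5.50. The part of the leukocyte, mast cell and neuronal genes above background in the changes of Ltc4s, Alox5, Avil and Dclk1 was not tested.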

How the data were processed

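The authors hybridized amplified RNA to Affymetrix Mouse Genome 430 2.0 arrays and deposited RMA values on a log2 scale, made in Partek Genomics Suite 6.5. The submitters' processing notes also name Affymetrix Expression Console 1.1. RMA draws arrays to 1 distribution, so a shift of most genes is not kept. Detection calls are not used here. Of 45101 probe sets, 64 controls were left out. The array annotation gave 34945 probe sets 1 symbol, 932 several and 9160 none. Of those with 1 symbol, 34741 matched RefSeq genes of GRCm38.p6 by Entrez ID, and 0 symbols changed.

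Groups came from the labels. The 2 groups were fitted by lmFit and eBayes of limma 3.58.1 (R 4.3.3), with no block, on all 45037 probe sets, with Benjamini-Hochberg adjustment and a threshold of 0.05. The test was checked on simulated data. Pools were separate samples in the labels. The members and lists were chosen with earlier results of these data known, from general knowledge of tuft and airway cells. Named genes are all members with every probe set, in each partner list the 5 called genes with the smallest p plus fixed defining genes, and in the lists of other cells at most 3 called genes with the smallest p plus markers within background, besides the genes said to be named after their values were seen. The 5 genes most like Pou2f3 were ranked by Pearson r. Alternatives covered the probe sets tested, the variance model, the methods' t-test, normalization, a filter on dim probe sets, the replicate block, array weights, a threshold of 0.01, each array left out and the background percentile. The methods' t-test is the equal-variance form for the 6 epithelial arrays, adjusted here. The study ran a two-way analysis of variance that also held the mesenchyme, which was not repeated. Replicate numbers were not taken as pairs. Plots used matplotlib 3.10.9.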

Additional observations from a re-analysis of the deposited data

How the results depend on the processing

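The 3 arrays a group and, for 12 of the 20 probe sets, signals within background limit these results. Of the 20 probe sets, 11 were called lower. This count was 6 with 1 probe set a gene (9 probe sets), 6 with the methods' t-test, 3 with equal hybridization controls and 6 with dim probe sets left out (8 probe sets), and 9 to 12 with single pools left out. The count of 6 genes called lower was 2 with equal hybridization controls and 5 to 6 with single pools left out. Trpm5 and Gng13, on their brightest probe sets, kept their calls under all 18 alternatives. Avil lost its call with the methods' t-test, equal hybridization controls, a threshold of 0.01 and without control replicate 3, and Gnb3 with the first 3 of these. Ltc4s and the brightest Dclk1 probe set lost theirs with equal hybridization controls. The Dclk1 probe set at -1.05, within background, kept its call there and lost it with the methods' t-test.

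For the receptors, the count of 0 became 1 with 1 probe set a gene, with one-symbol probe sets only and with a mean-variance trend (Tas2r105, named after its values were seen), and 1 with the replicate block (Tas2r108). The 9 further tuft cell genes called lower became 5 with the methods' t-test and 5 with equal hybridization controls (7 to 10 with single pools left out). The 7 leukotriene genes called became 3 with the methods' t-test. The 4 cholinergic genes called became 2 with the methods' t-test and 2 at a threshold of 0.01, and 2 to 3 with single pools left out, 2 of them without control replicate 2 or 3. Of the 15 relatives called, 10 were lower and 5 higher, whereas the calls were 1 lower and 10 higher with equal hybridization controls, 6 and 11 with a common median, and 7 and 6 with repeated quantile normalization or the methods' t-test. The total became 6 at a threshold of 0.01, and 9 to 13 with single pools left out, 9 without control replicate 2. The background level in control of 4.93 was 5.14 at the highest percentile tried, and that at 48 hpi of 4.81 was also 5.14. The cause of these changes was not tested.

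Changes of sign befell uncalled results alone. With equal hybridization controls Pou2f3 was at 0.21, Plcb2 at 0.11, the uncalled Dclk1 probe sets at 0.33, 0.14 and 0.25, Chat at 0.24, Tas1r3 at 0.32, and Itpr3 and Il25 at 0.14 each. With repeated quantile normalization 1 uncalled Dclk1 probe set, within background in both groups, was at 0.0322, Tas1r3 at 0.0495 and Plcb3 at -0.0771. A common median put the same Dclk1 probe set at 0.0703 and Tas1r3 at 0.0573. With array weights Chat was at 0.0847, Tas1r3 at 0.0635 and Plcb3 at -0.0440. With single pools left out the dim Gng13 probe set ranged from -0.0340 to 0.153, 1 Dclk1 probe set from -0.115 to 0.0578, Chat from -0.278 to 0.0942, Tas1r3 from -0.135 to 0.101 and Plcb3 from -0.0460 to 0.141. Of 1140 values of 65 single results under the alternatives, 1034 kept direction and side of the threshold, 73 lost their call, 6 gained one and 27 changed sign.

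Of all calls, 49.0% were lower, against 35.9% with a common median, 38.5% with the methods' t-test and 15.5% with equal hybridization controls. Same-numbered pools deviated together only weakly (r = 0.204, 0.0824 and 0.193), so the numbers were not treated as pairs. With the replicate block 13 of the 20 probe sets were called lower, and every pool correlated best with its own number, a hint from the data and not the design.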

Other observations

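Other rare cells of the tracheal epithelium were measured beside tuft cells. Of 7 ionocyte genes, 3 were called lower (42.9%) and 0 higher, against 16.1% and 18.4% over all genes. The mean list levels were 5.11 to 5.29 in the control pools and 4.46 to 4.95 at 48 hpi. Within background in both groups were 4 of the 7. Among these, Cftr, named after its values were seen, was not called and changed in the other direction (0.33, SE 0.17). Atp6v1c2, a proton pump subunit, read 8.93, 9.46 and 9.08 in control and 8.05, 7.43 and 7.17 at 48 hpi, a change of -1.60 (SE 0.23, limma adjusted p = 0.00159). Ascl3, a transcription factor of ionocytes, read 6.69, 6.42 and 6.74 in control and 6.09, 5.55 and 5.43 at 48 hpi, a change of -0.92 (SE 0.18). Foxi1, the ionocyte lineage factor, was called lower at -0.53 (SE 0.10) within background. Of 6 measured neuroendocrine genes, 1 was above background in either group and 0 were called in limma.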
